A study of Homo sapiens with 54 samples.

Results

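SW620 cells given trametinib were compared with SW620 control cells in the second of the 2 count tables of the series, taking the 3 columns labelled with the line and trametinib and the 3 labelled with the line and control. These are 6 of the 54 libraries of the series. SW620 is an established human colorectal cancer line grown from a lymph node metastasis. Trametinib was the agent of the first group and none was named for the second. Both groups were grown in DMEM with serum and antibiotics. The sources used here give neither the dose of trametinib nor the length of exposure. Nor do the labels say whether libraries were made from separate cultures. The p-values therefore rest on the spread among libraries, which may be technical. The study as a whole profiled 6 cancer cell lines under kinase inhibitors by sequencing the 3′ ends of transcripts (QuantSeq). The libraries are called trametinib 1, 2 and 3 and control 1, 2 and 3, after their labels.

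Trametinib inhibits MEK1 and MEK2. In the pathway it blocks, RAS proteins activate RAF kinases, RAF activates MEK, and MEK activates the kinases ERK1 and ERK2, which drive transcription of growth genes such as MYC and, as a brake, of the phosphatases and Sprouty proteins that turn the pathway down. In many colorectal cancers this pathway is held on, and loss of its target transcripts is the usual transcript readout of MEK inhibition. ATF4 is a transcription factor made when amino acids run short or the endoplasmic reticulum is stressed, and it drives genes for amino acid synthesis, amino acid import and the charging of tRNA.

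The trametinib libraries held 10.8 to 12.8 × 1e6 counted reads and the control libraries 10.0 to 12.8 × 1e6. Epithelial and line markers were present throughout: EPCAM, an epithelial adhesion protein, was at 586 to 595 CPM in trametinib libraries and 601 to 647 CPM in control libraries (CPM, read counts scaled to a common library total). In bulk RNA, fewer cells of a type and less RNA per cell cannot be told apart. Of the markers of other cell types, the T cell gene CD3E and the endothelial gene CDH5 were at 0 in all 6 libraries. The summed level of 5 leukocyte markers was 1.96 to 4.98 CPM in trametinib libraries and 1.91 to 2.58 CPM in control libraries; most of it was LYZ, lysozyme, at 1.41, 3.01 and 3.69 CPM in trametinib 1, 2 and 3, against 1.53, 1.70 and 1.72 CPM in the controls. The sum of 3 endothelial markers was 0.167 to 1.11 CPM in trametinib libraries and 0.625 to 1.05 CPM in control libraries. The part of these in the results was not tested. The summed level of 6 fibroblast markers was 19.3 to 22.4 CPM in trametinib libraries and 15.8 to 21.7 CPM in control libraries. Mitochondrial ribosomal RNA took 2.85 to 3.82% of the reads in trametinib libraries and 1.36 to 3.51% in control libraries (exact permutation test over the 6 libraries, two-sided, p = 0.3). Without these RNAs edgeR again called 0 genes, with 2190 at an unadjusted p under 0.05 and a smallest adjusted p of 0.209. The same exact permutation test gave p = 0.2 for the number of genes detected, 0.5 for the share of the 50 highest genes and 0.6 for depth, where 0.1 is the smallest p that 3 against 3 libraries can give. RNA of the other 5 lines was low by genes that SW620 lacks: their summed level reached at most 0.347% of that in their own line in a trametinib library (14 NCI-N87 genes, trametinib 3) and at most 0.213% in a control library (17 SW48 genes, control 2).

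Trametinib 1 lay close to the controls, trametinib 3 far from them and trametinib 2 between. Lists of genes driven by ERK and by ATF4 had their lowest medians in trametinib 3. Lists of cholesterol, WNT target and mitotic genes had positive group medians, with 9 of 24, 12 of 22 and 15 of 29 members above the controls in all 3 trametinib libraries, against 11.1% of all genes. All lists were chosen with earlier results of these data known, so the shares given here and below describe the lists and do not test them.

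To show the regulatory sequence that the ATF4 results refer to, 4 promoters of the RefSeq annotation (build GRCh38.p14) are printed, 1 from each of the 4 lists of ATF4-linked genes; each runs from 250 bases before the annotated transcript start to 50 bases after it, and capitals mark a match to the amino acid response element that ATF4 and its partners bind (TGATGNAA, either strand). ASNS, asparagine synthetase, is at chr7:97872359-97872658 on the minus strand. CHAC1, a glutathione-degrading enzyme, is at chr15:40953221-40953520 on the plus strand. SLC38A1, a glutamine transporter, is at chr12:46266467-46266766 on the minus strand. IARS1, isoleucyl-tRNA synthetase, called IARS in the count table, is at chr9:92293648-92293947 on the minus strand.
ASNS: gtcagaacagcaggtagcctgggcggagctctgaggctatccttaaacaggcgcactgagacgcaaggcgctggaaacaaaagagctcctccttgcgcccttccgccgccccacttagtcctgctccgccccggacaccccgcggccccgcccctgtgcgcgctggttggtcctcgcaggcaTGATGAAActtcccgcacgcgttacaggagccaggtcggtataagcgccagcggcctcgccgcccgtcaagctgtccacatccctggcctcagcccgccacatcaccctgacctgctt
CHAC1: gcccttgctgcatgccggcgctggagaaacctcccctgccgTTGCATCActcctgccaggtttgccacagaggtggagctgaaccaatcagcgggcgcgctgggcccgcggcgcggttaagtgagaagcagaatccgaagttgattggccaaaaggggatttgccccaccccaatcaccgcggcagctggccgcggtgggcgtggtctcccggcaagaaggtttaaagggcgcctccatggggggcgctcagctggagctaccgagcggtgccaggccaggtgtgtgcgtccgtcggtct
SLC38A1: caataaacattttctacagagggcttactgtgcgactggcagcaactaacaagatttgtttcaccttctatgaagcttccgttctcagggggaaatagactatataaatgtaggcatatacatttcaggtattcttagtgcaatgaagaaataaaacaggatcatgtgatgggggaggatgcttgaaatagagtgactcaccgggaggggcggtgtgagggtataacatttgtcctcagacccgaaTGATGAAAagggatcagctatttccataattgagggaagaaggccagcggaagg
IARS1: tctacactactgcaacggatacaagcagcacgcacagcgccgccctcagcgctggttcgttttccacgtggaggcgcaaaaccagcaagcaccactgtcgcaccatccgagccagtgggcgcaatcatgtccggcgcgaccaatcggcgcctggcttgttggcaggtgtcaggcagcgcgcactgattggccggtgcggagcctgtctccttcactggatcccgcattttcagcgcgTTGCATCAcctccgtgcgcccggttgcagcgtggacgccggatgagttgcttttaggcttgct
The match starts 68 bases before the transcript start in ASNS, 209 before in CHAC1, 4 before in SLC38A1 and 13 before in IARS1. Of 27305 RefSeq promoters of this length, 3.67% hold the motif. It was found in 3 of 17 promoters of ATF4 and CHOP stress regulators, 3 of 10 of amino acid synthesis enzymes, 3 of 9 of amino acid transporters and 6 of 14 of cytosolic tRNA synthetases. These lists hold 20, 16, 11 and 18 genes, and members without a promoter sequence at hand are not counted. The 4 promoters printed all hold a match, while most promoters counted in each list do not. A match is a run of letters and was not tested as a binding site. A sterol regulatory element (TCACNCCAC) was in 1 of 18 promoters of cholesterol genes against 1.15% of all promoters, and a TCF and LEF site (CTTTGAT) in 1 of 16 promoters of WNT and stem cell genes against 2.64%. The E-box CACGTG, which MYC binds, was in 10 of 23 promoters of ribosome biogenesis genes and 7 of 15 of lysosome and autophagy genes, against 7.43% of all.

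The trametinib libraries differed in their distance from the controls. Over 7523 genes whose mean log2 CPM reached 4, the differences from the control mean had an SD of 0.17 log2 units in trametinib 1, 0.29 in trametinib 2 and 0.41 in trametinib 3. Each control set against the other controls gave 0.18, 0.23 and 0.26. Trametinib 1 was therefore about as far from the controls as the closest control was from the others. A control is set against a mean of 2 libraries and a trametinib library against a mean of 3, which widens the control values a little. In trametinib 1, 7 of these genes were at least 2-fold above the control mean and 2 at least 2-fold below. In trametinib 2 the numbers were 20 and 27, and in trametinib 3 they were 60 and 141. A control set against the other controls had 2 to 34 above and 1 to 21 below. The biological coefficient of variation was 15.1% in the trametinib group and 12.6% in the controls, and 7.75% and 7.48% in trametinib and control libraries of SW48, the other colorectal line of the table.

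**Figure D1:**
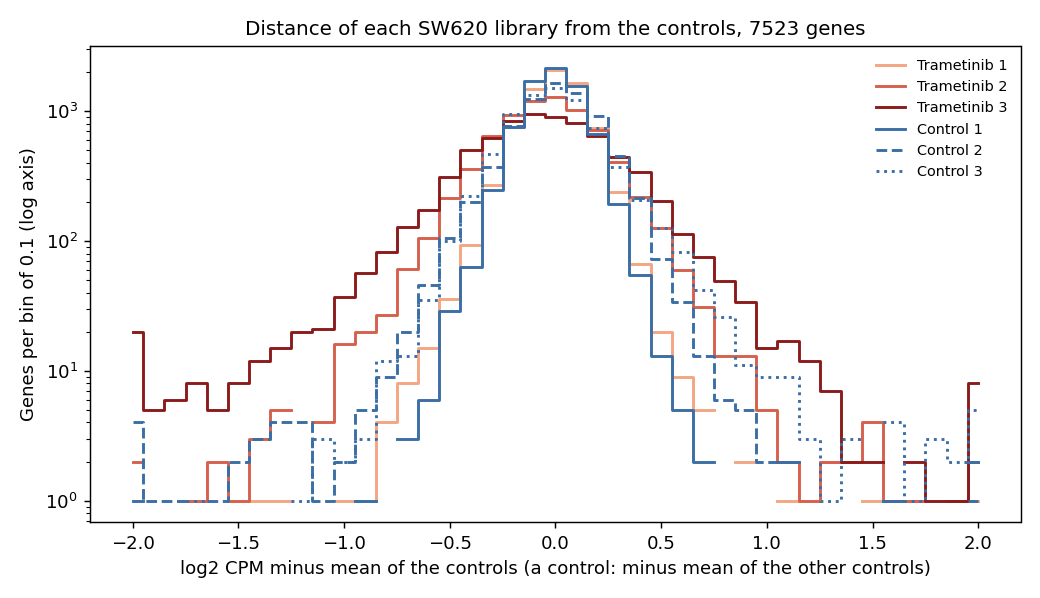
Number of genes (y, log axis) by the difference in log2 CPM between a library and the mean of the 3 controls (x, bins of 0.1, values beyond 2 put in the end bins); a control library is set against the other controls. Red lines are trametinib libraries and blue lines controls. Trametinib 3 has the widest spread, with an SD of 0.41, and trametinib 1 (0.17) lies near the narrowest of the controls (0.18 to 0.26).

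With all 6 libraries in 1 fit, no gene passed the threshold: edgeR's quasi-likelihood test called 0 of 12919 genes (percent called 0), and the smallest adjusted p was 0.209. At an unadjusted p under 0.05 stood 2204 genes (17.1%), 1046 higher (8.1%) and 1158 lower (8.96%) with trametinib. All 3 trametinib libraries lay above all 3 controls for 1428 genes (11.1%) and below them for 1438 (11.1%). Trametinib 1 was the nearest of the 3 to the controls in 928 of the genes above (65%) and in 973 of the genes below (67.7%), and trametinib 3 was the farthest in 923 (64.6%) and 923 (64.2%). The call of 0 depended on the tool and on 1 library: DESeq2 called 208 genes on the same counts, 118 higher (0.913%) and 90 lower (0.697%). Without trametinib 1, edgeR called 882, 417 higher (3.17%) and 465 lower (3.54%). The values below are therefore given per library first, and the group fold changes as estimates that did not pass the adjusted test.

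Each trametinib library was also set against the 3 controls by itself, with the spread taken from the controls alone and the single library assumed to vary like them; such a test compares a library, not the drug. In trametinib 1, edgeR called 0 of 12919 genes, with 360 (2.79%) at an unadjusted p under 0.05. In trametinib 2 it called 37, 21 higher (0.163%) and 16 lower (0.124%). In trametinib 3 it called 851, 386 higher (2.99%) and 465 lower (3.6%), of which 177 (1.37%) and 218 (1.69%) differed at least 2-fold. These numbers rest on the controls: without control 3 they were 71, 1174 and 2841, and without control 1 they were 0, 1 and 171.

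ERK-driven transcription factors and growth genes stood lower in the trametinib libraries, most of all in trametinib 3. MYC, a transcription factor that drives cell growth, had 108, 84.3 and 55.0 CPM in trametinib 1, 2 and 3, against 156, 156 and 142 CPM in the controls. All 3 trametinib values were below all 3 controls. The group log2 fold change was -0.88 ± 0.20 (SE, 95% interval -1.33 to -0.43), which did not pass edgeR's adjusted test, and in trametinib 3 by itself MYC fell by 1.46 on the log2 scale (adjusted p = 0.00225). AREG, the EGFR ligand amphiregulin, had 5.33, 2.53 and 0.807 CPM in trametinib 1, 2 and 3, against 9.54, 9.74 and 7.89 CPM in the controls, on 67, 31 and 9 reads against 100, 95 and 99. Here too the groups did not overlap, and the log2 fold change was -1.62 ± 0.45. EREG, the related ligand epiregulin, had 2.78, 1.14 and 0.448 CPM against 3.53, 4.41 and 2.79 CPM in the controls, a log2 fold change of -1.26 ± 0.50, with trametinib 1 just under control 3. EMP1, a membrane protein of epithelial cells, had 5.49, 2.28 and 2.24 CPM against 9.92, 8.20 and 6.54 CPM in the controls. ETV4, an ETS factor, had 51.9, 49.9 and 26.9 CPM against 55.7, 53.2 and 88.5 CPM in the controls. JUNB, a subunit of AP-1, had 22.1, 26.8 and 16.8 CPM against 31.5, 31.1 and 38.9 CPM. JUN, another AP-1 subunit, lay the other way, at 249, 301 and 261 CPM against 232, 208 and 188 CPM in the controls.

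Several genes often read as markers of ERK activity were near the control level in trametinib 1 and 2. DUSP6, the ERK phosphatase, had 301, 258 and 151 CPM in trametinib 1, 2 and 3, against 299, 299 and 271 CPM in the controls. Trametinib 1 was above all controls, trametinib 2 a little below them and trametinib 3 far below. In that library DUSP6 fell by 0.94 on the log2 scale (adjusted p = 0.0123), and the group value was -0.29 ± 0.21. ETV5 had 172, 173 and 121 CPM against 160, 154 and 156 CPM in the controls, a log2 fold change of -0.02 ± 0.14. EGR1, an immediate early factor, had 76.2, 75.4 and 32.7 CPM against 80.0, 72.7 and 69.2 CPM in the controls, again low in trametinib 3 alone. SPRY4, a Sprouty inhibitor of the pathway, had 11.2, 10.8 and 12.01 CPM against 11.4, 11.6 and 9.41 CPM in the controls, and its 95% interval, -0.26 to 0.40, holds 0. PHLDA1 had 641, 718 and 580 CPM against 643, 628 and 586 CPM in the controls (95% interval -0.18 to 0.31). CCND1, cyclin D1, had 280, 204 and 190 CPM against 280, 265 and 278 CPM in the controls, with trametinib 1 at the control level. DUSP5, a nuclear ERK phosphatase, stood lower in every trametinib library, at 6.28, 4.08 and 1.61 CPM, against 8.78, 7.79 and 9.65 CPM in the controls, with no overlap. Transcripts of the drug's own targets overlapped between the groups. MAP2K1, which encodes MEK1, had 35.9, 31.2 and 26.7 CPM against 33.9, 38.0 and 28.2 CPM in the controls, and MAP2K2, which encodes MEK2, had 68.7, 62.2 and 54.5 CPM against 65.0, 56.2 and 90.3 CPM.

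By list, the group median was -0.14 for 10 tested ERK feedback genes, -0.28 for 16 ERK-driven transcription factors and -0.49 for 15 ERK-driven growth and surface genes, and 0.00 over all genes. None of their members passed edgeR's adjusted test in the group comparison. The groups did not overlap, with trametinib lower, for 3, 6 and 6 of them, where 11.1% of all genes did so. In trametinib 3, 3 of 10, 8 of 16 and 7 of 15 fell, against 3.6% of all genes, and none rose. In trametinib 1 and trametinib 2, 0 of these 41 members passed.

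**Figure D2:**
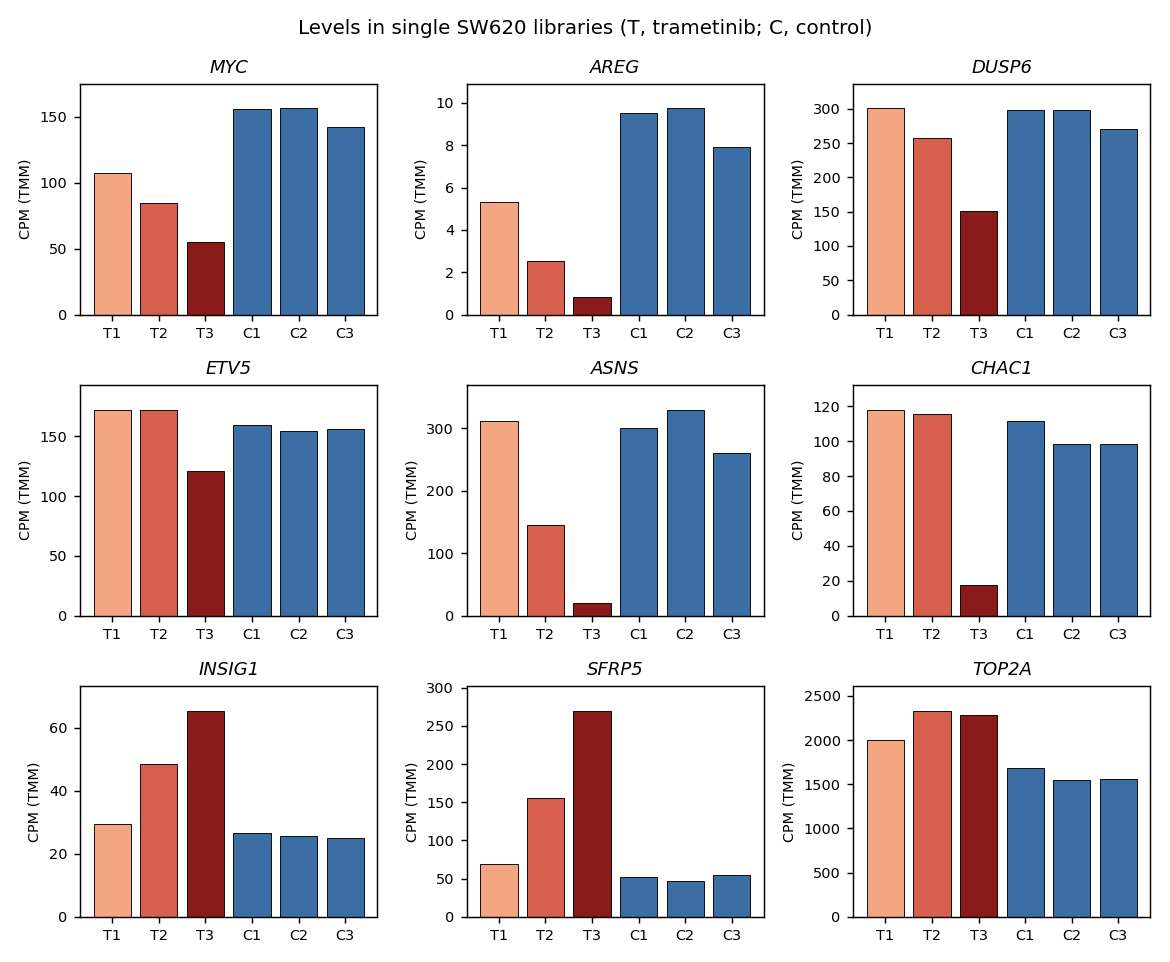
Level of 9 genes (y, CPM with TMM scaling, linear from 0) in each library (x; T1 to T3, trametinib; C1 to C3, controls). MYC and AREG are below the controls in all 3 trametinib libraries, ETV5 and CHAC1 in trametinib 3 alone, DUSP6 and ASNS in trametinib 2 and 3, and INSIG1, SFRP5 and TOP2A are above the controls in all 3.

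Of the genes called in trametinib 3 with a mean log2 CPM that reached 4, the 5 lowest were INHBE, ASNS, DDIT4, ADM2 and S100P, of which ASNS and DDIT4 are members of the ATF4-linked lists. ASNS, which makes asparagine, had 311, 146 and 20.9 CPM in trametinib 1, 2 and 3, against 301, 330 and 259 CPM in the controls. Trametinib 1 was at the control level, trametinib 2 below it and trametinib 3 far below, by 3.83 on the log2 scale (adjusted p = 0.000243). The group value, -0.90 ± 0.65, has a 95% interval of -2.35 to 0.56. CHAC1 had 118, 115 and 17.5 CPM against 112, 98.4 and 98.5 CPM in the controls, so only trametinib 3 was low, and without that library its group value changed sign, to 0.19. DDIT4, an inhibitor of mTORC1, had 178, 125 and 15.1 CPM against 187, 173 and 162 CPM in the controls. TRIB3, a pseudokinase that ATF4 and CHOP induce, had 247, 137 and 38.9 CPM against 265, 286 and 262 CPM in the controls, with no overlap, and it was called lower in trametinib 2 (adjusted p = 0.0456) and trametinib 3 (adjusted p = 0.000245). GDF15, a stress cytokine, had 246, 148 and 46.8 CPM against 284, 274 and 349 CPM in the controls. INHBE, an inhibin subunit that is in none of the lists, had 84.6, 49.9 and 5.91 CPM against 81.4, 93.3 and 81.3 CPM, and ADM2, a peptide hormone likewise outside them, 28.6, 23.3 and 3.14 CPM against 29.2, 28.5 and 28.5 CPM in the controls. DDIT3, which encodes CHOP, had 44.7, 27.9 and 16.1 CPM against 50.1, 45.9 and 42.7 CPM in the controls. The transcript of ATF4 itself, named after its values were seen, had 929, 733 and 383 CPM against 845, 986 and 899 CPM.

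Counted by role, calls came almost wholly from trametinib 3. Among 19 tested ATF4 and CHOP stress regulators, 16 fell in trametinib 3 and 1 in trametinib 2. Among 15 amino acid synthesis enzymes, 11 fell in trametinib 3, among 10 amino acid transporters 8, and among 18 cytosolic tRNA synthetases 13, each against 3.6% of all genes; none of these 62 genes was called higher, and none was called in trametinib 1. The median differences from the control mean were -1.72 in trametinib 3, -0.25 in trametinib 2 and 0.03 in trametinib 1 for the stress regulators, and -1.39, -0.40 and 0.06 in the same order for the synthesis enzymes. PSAT1, an enzyme of serine synthesis, had 615, 484 and 197 CPM in trametinib 1, 2 and 3, against 584, 598 and 460 CPM in the controls. SLC7A11, the cystine importer, had 81.1, 59.9 and 17.8 CPM against 76.6, 82.4 and 77.8 CPM in the controls. SLC38A1, whose promoter is shown above, had 448, 382 and 266 CPM against 457, 432 and 450 CPM, and IARS had 120, 77.4 and 48.6 CPM against 127, 147 and 103 CPM in the controls. In both, trametinib 3 was the lowest of the 6 libraries. WARS, tryptophanyl-tRNA synthetase, was below the controls in all 3 trametinib libraries, at 146, 99.5 and 60.7 CPM against 161, 163 and 176 CPM. Chaperones of the endoplasmic reticulum, which belong to the other branches of the stress response, had a median of -0.09 over 16 genes in trametinib 3. Of these chaperones 1 fell and none rose there (3.6% and 2.99% of all genes). Among them CALR, calreticulin, had 467, 531 and 596 CPM against 433, 421 and 454 CPM in the controls.

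**Figure D3:**
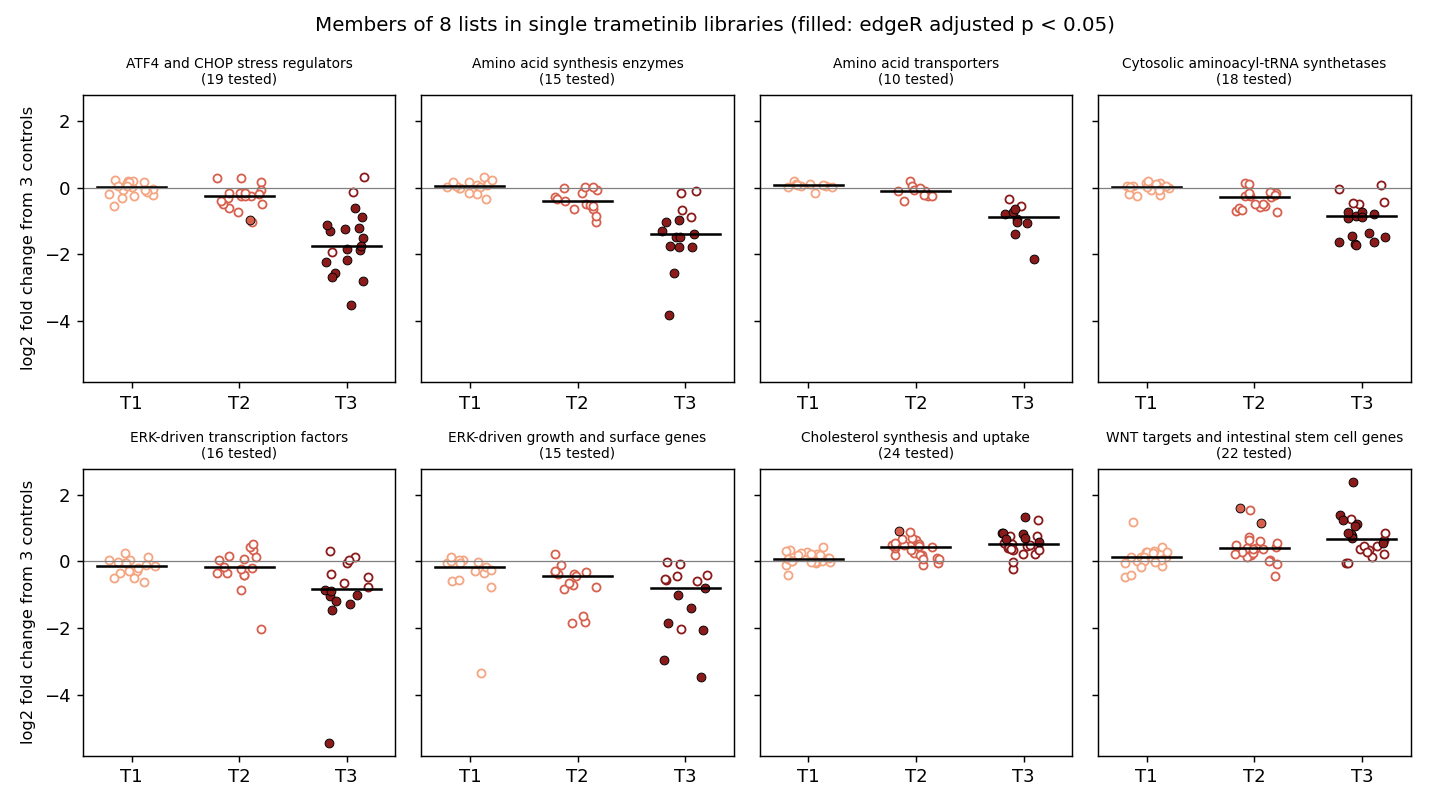
Log2 fold change of single trametinib libraries from the 3 controls (y) for the tested members of 8 gene lists; each point is a gene, filled where edgeR's adjusted p is under 0.05, and the bar is the median. In trametinib 3, 16 of 19, 11 of 15, 8 of 10 and 13 of 18 members of the upper lists are called lower, and in trametinib 1 no member of any of the 8 lists is called.

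The cholesterol list had a median difference of 0.08 in trametinib 1, 0.47 in trametinib 2 and 0.53 in trametinib 3, against -0.08 to 0.08 in single controls. INSIG1, a sterol-sensing regulator of the pathway, had 29.4, 48.4 and 65.4 CPM in trametinib 1, 2 and 3, against 26.7, 25.6 and 24.9 CPM in the controls. The groups did not overlap, the log2 fold change was 0.89 ± 0.24, and INSIG1 rose in trametinib 2 (adjusted p = 0.0462) and trametinib 3 (adjusted p = 0.00204). HMGCS1, which makes the precursor HMG-CoA, had 70.2, 86.1 and 99.2 CPM against 58.9, 56.5 and 50.9 CPM in the controls. For HMGCS1 too, all 3 trametinib libraries were above all 3 controls. Of 24 tested members, 9 did so (11.1% of all genes), 0 had all 3 below, and the median was 0.36; 7 rose in trametinib 3 (2.99% of all genes) and 1 in trametinib 2. With trametinib 1 left out, the group fit called 11 of the 24 higher, against 3.17% of the 13141 genes tested. That library had the lowest median of the trametinib libraries on this list, so leaving it out favours such calls. With any other library left out, edgeR called no gene, and the smallest adjusted p was 0.325 or more.

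WNT targets and intestinal stem cell genes held the next such group. SFRP5, a secreted WNT antagonist, had 69.4, 156 and 270 CPM in trametinib 1, 2 and 3, against 51.9, 47.2 and 54.5 CPM in the controls, and rose in trametinib 2 (adjusted p = 0.0101) and trametinib 3 (adjusted p = 0.000199). Its group log2 fold change was 1.69 ± 0.38. SMOC2, a matrix protein of crypt stem cells, had 58.6, 110 and 130 CPM against 50.5, 49.5 and 48.3 CPM in the controls. EPHB2, a receptor that positions crypt cells, had 231, 318 and 418 CPM against 205, 179 and 191 CPM, and EPHB3, its relative, 80.7, 98.1 and 134 CPM against 70.8, 62.7 and 59.8 CPM in the controls. LGR5, the stem cell receptor, named after its values were seen, had 12.6, 16.1 and 20.3 CPM against 11.9, 11.6 and 11.1 CPM. Of 22 tested members, 12 had all trametinib libraries above all controls (11.1% of all genes) and 0 below. In trametinib 3, 10 rose (2.99% of all genes), and in trametinib 2, 2 rose (0.163%). The gut differentiation genes had a median of 0.34 over 10 members, of which 3 lay above all controls and 1 below (11.1% of all genes each). TFF3, a goblet cell peptide, had 80.3, 123 and 164 CPM against 84.2, 75.6 and 96.9 CPM in the controls, and HNF4A, a factor of gut epithelium, 62.6, 75.0 and 74.4 CPM against 56.4, 61.8 and 57.9 CPM. Trametinib 3 was also the library with the most signal of NCI-N87 genes, 0.347% of the level in that gastric line (0.203% without PRR15L). Trametinib 1 and 2 had 0.112% and 0.117% and the controls 0.0598 to 0.110%. The same library was highest for genes of BT-20 (0.289%), BT-474 (0.255%) and MKN-45 (0.114%). For SW48 genes it was not (0.171% against 0.213% in control 2). The part of this signal in the differentiation genes was not tested.

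**Figure D4:**
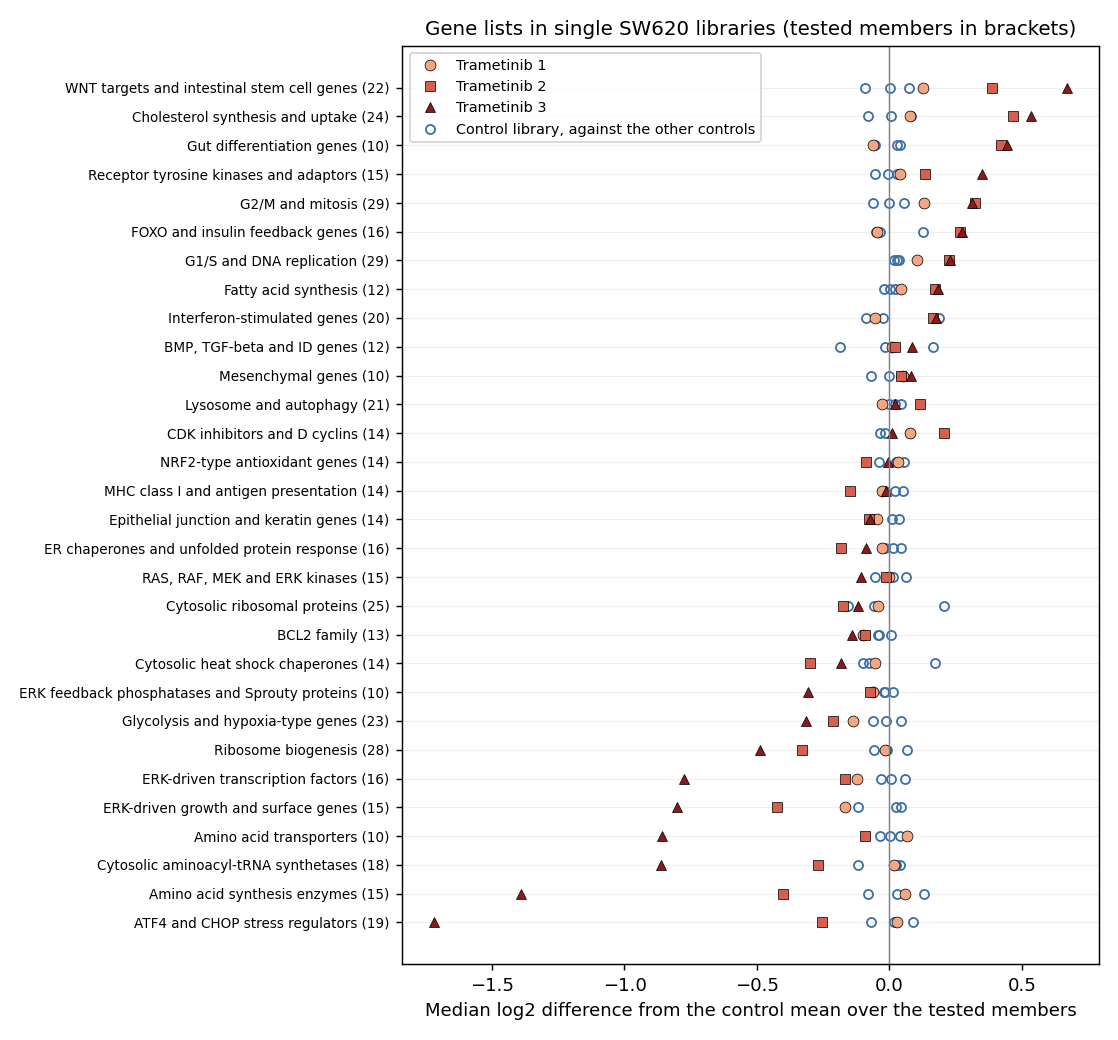
Median log2 difference from the control mean over the tested members of 30 gene lists (number in brackets), for each trametinib library (filled symbols) and each control set against the other controls (open circles). The ATF4 and amino acid lists lie lowest in trametinib 3 (-1.72 for the stress regulators), and the WNT and cholesterol lists lie highest (0.67 and 0.53).

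Many proliferation genes stood above the controls in all trametinib libraries. TOP2A, topoisomerase II of dividing cells, had 1998, 2333 and 2286 CPM in trametinib 1, 2 and 3, against 1683, 1554 and 1559.9 CPM in the controls. All 3 trametinib libraries were above all 3 controls, including trametinib 1, and the log2 fold change was 0.46 ± 0.10 (95% interval 0.23 to 0.69). MKI67, the proliferation marker Ki-67, had 274, 306 and 406 CPM against 210, 223 and 240 CPM in the controls. CENPF, a kinetochore protein, had 497, 548 and 657 CPM against 391, 408 and 420 CPM. RRM2, the ribonucleotide reductase subunit of S phase, had 75.4, 107 and 111 CPM against 69.6, 69.2 and 59.8 CPM in the controls, and CCNE2, cyclin E2, 10.9, 10.2 and 11.8 CPM against 7.44, 7.08 and 7.49 CPM. Of 29 G2/M genes 15 had all trametinib libraries above all controls, and of 29 G1/S and replication genes 11 did, against 11.1% of all genes, with 0 below in either list. In trametinib 3, 6 of the G2/M genes and 1 of the G1/S genes were called higher and none lower, against 2.99% of all genes called higher; for the G1/S genes this is near the share of all genes. Among CDK inhibitors, CDKN2C, which encodes p18, had 11.5, 25.7 and 27.3 CPM against 9.83, 9.74 and 12.5 CPM in the controls, and rose in trametinib 3 (adjusted p = 0.00969). CDKN1A, which encodes p21, had 1.19, 2.45 and 1.34 CPM against 0.763, 0.923 and 0.239 CPM in the controls. All 3 trametinib libraries were above all 3 controls, but these levels are low and rest on few reads.

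Genes of ribosome assembly, many of them MYC targets, had a median of -0.27 over 28 members. Of these, 4 had all trametinib libraries below all controls, a share near that of all genes (11.1%), and 6 fell in trametinib 3 (3.6% of all genes). The median difference from the control mean was -0.02 in trametinib 1, -0.33 in trametinib 2 and -0.49 in trametinib 3, against -0.06 to 0.07 in single controls. TSR1, a factor of the small subunit, had 99.9, 71.7 and 71.4 CPM against 103, 133 and 101 CPM in the controls, and FBL, fibrillarin, 882, 852 and 766 CPM against 973, 993 and 1262 CPM. Receptor kinases had a median of 0.12 over 15 members, with 5 higher and 1 lower in trametinib 3 (2.99% and 3.6% of all genes). Of those 5, 2 are EPHB2 and EPHB3, which are also in the WNT list. FGFR4 had 58.6, 77.0 and 92.1 CPM against 51.9, 53.2 and 63.4 CPM in the controls, and ERBB3 140, 158 and 198 CPM against 130, 129 and 141 CPM. In the BCL2 family, BCL2L11, which encodes the killer protein BIM that ERK signalling holds down, had 20.3, 26.4 and 32.4 CPM against 21.3, 20.4 and 19.8 CPM in the controls, and rose in trametinib 3 (adjusted p = 0.0381). Over its 13 members the median was -0.23, with 1 higher and 2 lower in trametinib 3 (2.99% and 3.6% of all genes). Among glycolysis and hypoxia-type genes, 7 of 23 lay below all controls and 1 above (11.1% of all genes each), with a median of -0.20. ALDOA, aldolase A, had 185, 221 and 167 CPM against 235, 255 and 307 CPM in the controls, and SLC16A3, a lactate exporter, 147, 106 and 78.0 CPM against 167, 142 and 186 CPM. For MHC class I genes 3 of 14 lay below all controls, where 11.1% of all genes did, among them HLA-B, a class I heavy chain, with 21.0, 16.96 and 13.8 CPM against 25.4, 25.1 and 25.7 CPM in the controls. The other lists of at least 5 tested members had group medians between -0.17 (cytosolic heat shock chaperones) and 0.13 (FOXO and insulin feedback genes). In trametinib 3 at most 4 of their members were called in either direction. Called lower were 4 of 21 lysosome and autophagy genes and 3 of 14 NRF2-type antioxidant genes, against 3.6% of all genes, and none was called higher. Among 14 CDK inhibitors and D cyclins, 3 were called lower and 1 higher (3.6% and 2.99% of all genes).

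Among genes whose groups did not overlap and whose mean log2 CPM reached 4, trametinib 1 was the nearest of the 3 to the controls in 11 of the 12 with the highest fold changes and in all of the 12 with the lowest. The exception was TRNK, the mitochondrial lysine tRNA, with 50.2, 40.7 and 42.4 CPM in trametinib 1, 2 and 3, against 27.4, 9.84 and 28.5 CPM in the controls. COL9A3, a chain of collagen IX, had 52.1, 92.7 and 125 CPM in trametinib 1, 2 and 3, against 23.7, 26.3 and 14.99 CPM in the controls, a log2 fold change of 2.06 ± 0.31. ITPR2, a calcium channel of the endoplasmic reticulum, had 352, 688 and 1475 CPM against 204, 205 and 223 CPM in the controls. FN1, fibronectin, had 13.1, 22.02 and 45.6 CPM against 7.82, 8.51 and 8.13 CPM. It is 1 of 10 tested mesenchymal genes, whose median was 0.05, with 1 higher and 2 lower in trametinib 3 (2.99% and 3.6% of all genes). These 3 genes are named among those whose groups did not overlap, a choice that by itself places trametinib 1 above every control. NFE2, METTL7A, MUC1, NEURL1B and COL27A1 had group log2 fold changes of 1.63, 1.57, 1.35, 1.34 and 1.08. At the other end, EEF1A2, an elongation factor isoform, had 47.6, 30.3 and 20.7 CPM against 75.1, 65.6 and 102 CPM in the controls, and CST7, a cystatin, 78.8, 32.6 and 21.0 CPM against 103, 107 and 117 CPM. ASS1, argininosuccinate synthase of arginine synthesis, had 117, 45.2 and 27.3 CPM against 143, 133 and 148 CPM in the controls, and fell in trametinib 2 (adjusted p = 0.0113) and trametinib 3 (adjusted p = 0.00041). BEX2, KISS1R, KRT80, SERPINE2 and L1CAM had group log2 fold changes of -1.18, -1.15, -1.02, -0.95 and -0.92. KRT80 is 1 of 14 tested epithelial junction and keratin genes, whose median was -0.09. Of the 14, 0 were called higher and 2 lower in trametinib 3 (2.99% and 3.6% of all genes). KRT81, at -1.18, has a near-identical neighbour, KRT86, so its reads are uncertain. In trametinib 2 by itself the named genes with the widest differences included DIO3, a thyroid hormone deiodinase, at 95.8, 175 and 105 CPM in trametinib 1, 2 and 3 against 70.6, 51.5 and 69.9 CPM in the controls, and P2RX5, an ATP-gated channel, at 26.9, 7.83 and 7.62 CPM against 33.9, 25.0 and 34.7 CPM. S100P, a calcium-binding protein, had 268, 119 and 32.4 CPM against 306, 296 and 266 CPM in the controls.

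SW48, another established colorectal cancer line, received the same drug in the same table, and whether SW620 changed differently was asked of 12 libraries in 1 fit, with an interaction term. The SW620 effect in this fit is a mean over 3 trametinib libraries that differed among themselves. Both lines share 1 spread per gene, and SW48 libraries varied less (7.48 to 7.75%, against 12.6 to 15.1% in SW620). The SE may therefore be too small for SW620. The effect was higher in SW620 for 2146 of 14027 genes (15.3%) and lower for 1813 (12.9%) by edgeR at an adjusted p under 0.05. Genes of ERK output separated the lines. On the scale of this fit DUSP6 had 328, 286 and 165 CPM in SW620 with trametinib against 327, 325 and 291 CPM in its controls, and in SW48 it had 57.0, 63.2 and 64.5 CPM with trametinib against 340, 336 and 369 CPM in controls. The drug effects, -0.28 ± 0.17 in SW620 and -2.50 ± 0.18 in SW48, differed by 2.22 ± 0.25 (adjusted p = 2.36e-05). ETV5 differed by 2.54 ± 0.16, PHLDA1 by 3.96 ± 0.13, SPRY4 by 1.93 ± 0.26 and CCND1 by 1.59 ± 0.16, with effects in SW620 of 0.00, 0.08, 0.09 and -0.27, against -2.54, -3.88, -1.84 and -1.87 in SW48. MYC differed less, by 1.14 ± 0.23 (adjusted p = 0.00242), with -0.86 in SW620 against -1.999 in SW48. For AREG the effects were -1.59 in SW620 and -4.64 in SW48. By list, the effect was higher in SW620 for 7 of 11 ERK feedback genes, 12 of 17 ERK-driven transcription factors and 12 of 14 growth and surface genes, against 15.3% of all genes, and lower for 0, 2 and 0.

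ATF4-linked genes and sterol genes also differed between the lines in their mean effect. CHAC1 had an effect of -0.28 ± 0.41 in SW620 and -5.56 ± 0.52 in SW48, and ASNS -0.88 ± 0.53 in SW620 and -4.07 ± 0.60 in SW48 (differences of 5.28 ± 0.65 and 3.19 ± 0.77, adjusted p = 5.18e-05 and 0.00677). In trametinib 3 ASNS was at 22.8 CPM and in the 3 SW48 trametinib libraries at 39.1 to 41.8 CPM. The effect was higher in SW620 for 16 of 19 stress regulators, 13 of 15 synthesis enzymes, 9 of 10 transporters and 11 of 18 tRNA synthetases, against 15.3% of all genes, and lower for 1 synthetase (12.9% of all genes). INSIG1 and HMGCS1 were higher with trametinib in both lines, by 0.90 and 0.64 in SW620 and by 1.69 and 1.41 in SW48. For HMGCS1 the lines differed by -0.77 ± 0.18 (adjusted p = 0.00476); for INSIG1 the difference, -0.78 ± 0.28 (adjusted p = 0.0484), lost its call with 10 of the 12 libraries left out in turn. For TOP2A the effects were 0.48 ± 0.08 in SW620 and 0.72 ± 0.08 in SW48, and the difference did not pass (adjusted p = 0.122).

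**Figure D5:**
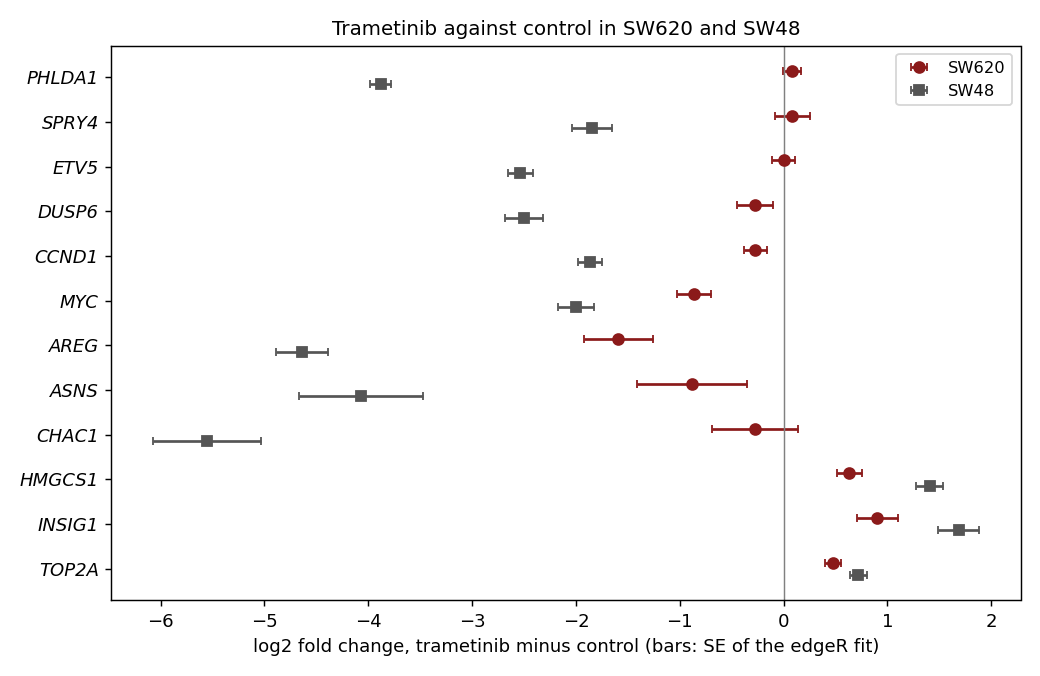
Log2 fold change of trametinib against control (x) for 12 genes in SW620 (circles) and SW48 (squares), from 1 fit over 12 libraries; bars are the SE, n = 3 libraries per group. The ERK output genes PHLDA1, SPRY4, ETV5 and DUSP6 lie between -0.28 and 0.09 in SW620 and between -3.88 and -1.84 in SW48.

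Palbociclib, a CDK4 and CDK6 inhibitor, was given to SW620 in the same table and shares these controls, so its levels are set beside those of trametinib without a test. ASNS stood at 33.5 to 39.2 CPM, CHAC1 at 23.3 to 27.2 CPM and TRIB3 at 49.0 to 52.3 CPM in the palbociclib libraries, levels near those of trametinib 3. EMP1 stood at 26.4 to 30.7 CPM, CCND1 at 806 to 822 CPM and DUSP6 at 372 to 381 CPM in those libraries, all above the controls, where trametinib 3 was below them; TOP2A was at 781 to 941 CPM, below the controls, where trametinib 3 was above. In the first table, counted apart and not comparable in level, SW620 was also given trametinib. AREG had 5.45, 4.95 and 4.95 CPM there with trametinib against 7.21, 6.77 and 6.64 CPM in controls. For ASNS, CHAC1 and TOP2A the groups overlapped in that table. ASNS had 146, 117 and 127 CPM with trametinib against 122, 111 and 297 CPM in controls. CHAC1 had 61.2, 80.7 and 84.6 CPM against 44.1, 53.0 and 62.3 CPM. TOP2A had 2008, 1936 and 2108 CPM against 1884, 2306 and 832 CPM. SFRP5 had 35.6, 31.2 and 30.3 CPM with trametinib against 37.1, 45.6 and 57.7 CPM, and INSIG1 18.1, 13.3 and 10.95 CPM against 41.7, 30.1 and 2.83 CPM in controls, so neither stood above the controls in that table. Control 3 of that table stood apart from its other controls: MYC had 113.5, 137 and 128 CPM with trametinib against 119.5, 100.5 and 29.5 CPM in controls 1, 2 and 3.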

How the data were processed

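RNA of SW620 cells was sequenced from transcript 3′ ends with the QuantSeq kit, per the labels' protocols. Trimmomatic, STAR and featureCounts with build hg38 are named in the submitters' processing notes; the sources used here state no version, annotation or strand setting. The deposited values are counts of reads for each gene in each library, not normalised. The second table repeats 12 libraries of the first, and these copies were not used. Symbols were used as given, and 26 of 33119 had been turned into dates.

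The tests ran in edgeR 4.0.16 under R 4.3.3: filterByExpr (minimum count 10, minimum total 15), TMM, a quasi-likelihood fit with a mean per group, and Benjamini-Hochberg adjustment over all genes tested with a threshold of 0.05. The comparisons were trametinib with control over 6 libraries, each trametinib library with the 3 controls, and the difference of drug effects between SW620 and SW48 over 12 libraries. Alternatives used DESeq2 1.42.0, other scaling, filters and groups of libraries. CPM values are scaled by TMM; differences in log2 CPM use a prior count of 2. Marker sums and signal of other lines use CPM of the library total; genes of other lines had at least 100 CPM in that line's controls and under 1 CPM in SW620 palbociclib libraries. Library measures were tested with Python 3.11.15 and scipy 1.17.1.

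The 31 gene lists (574 genes, 560 found) and 24 fixed targets were chosen with earlier results of these data known. Genes named are members of the 24 targets, up to 4 genes per list with the smallest p, the 12 highest and 12 lowest fold changes with groups that do not overlap and a mean log2 CPM of at least 4, the 5 highest and 5 lowest called per library and the 8 with the widest range among trametinib libraries; EPCAM, ATF4 and LGR5 fall outside this rule, some genes were left out for length or are not reported here, and lists with under 5 tested members are not described. Replicate pairs were checked and none was a duplicate. The edgeR fits were tested on simulated data. Counting limits precision for low genes: 3 reads in a library are 0.234 to 0.300 CPM.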

Additional observations from a re-analysis of the deposited data

Results flagged for a closer look

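The drug effect differed between the lines by a test of the difference itself, in edgeR at an adjusted p under 0.05, for 2146 genes higher and 1813 genes lower in SW620 than in SW48. Of the genes named above, the differences on the log2 scale (SW620 minus SW48) were 2.22 for DUSP6, 2.54 for ETV5, 1.93 for SPRY4, 3.96 for PHLDA1, 1.14 for MYC, 1.59 for CCND1, 3.05 for AREG, 3.19 for ASNS and 5.28 for CHAC1, and they were -0.78 for INSIG1 and -0.77 for HMGCS1. No group has more than 3 libraries, so single libraries were not tested as outliers.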

How the results depend on the processing

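The count of 0 genes in the group comparison was kept with DESeq2 size factors, the robust fit and the 3 SW620 groups together. It was also kept without the mitochondrial ribosomal RNAs RNR1 and RNR2, a choice made after seeing the data. A fold limit of 2 selects among genes already called, so it could only return 0. The count became 398 without a filter on low counts, 208 with DESeq2 and 632 with all 14 groups in 1 fit. With a library left out it was 0 to 882, the highest without trametinib 1. Replicate numbers did not pair the libraries (correlations of same-numbered deviations -0.02, -0.17 and 0.07), and a fit with the number as a block called 0 genes in SW620 and 3484 in the line difference, where 3959 were called without it.

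Single-library counts moved most. Without a filter they were 6, 236 and 1286 for trametinib 1, 2 and 3; with the palbociclib libraries added, a choice made after seeing the data, 167 for trametinib 2 and 1367 for trametinib 3. With a control left out they ranged over 0 to 71, 1 to 1174 and 171 to 2841, and 395 genes of trametinib 3 differed at least 2-fold. The line difference stayed between 3175 and 4118 genes. Signal of other lines reached 1.83% when its genes were chosen in the first table (SW48 genes, mostly MT1G, in control 2). Of 30 lists 12 had a median above 0, and 9 to 14 under the alternatives.

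Signs that turned with a library left out belonged to log2 fold changes given here as ranges: RNR1 -0.038 to 1.14, CHAC1 -0.61 to 0.19, MAP2K1 -0.20 to 0.016, MAP2K2 -0.33 to 0.031, MAPK3 -0.27 to 0.054, SPRY2 -0.12 to 0.16, SPRY4 -0.022 to 0.12, ETV5 -0.10 to 0.14, EGR1 -0.44 to 0.044, PHLDA1 -0.022 to 0.14 and PSAT1 -0.67 to 0.012. The cause of these changes was not tested.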
